A study of Mus musculus with 96 samples.

Results

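The 48 genes described here make and license the DNA replication fork or control entry into S phase, and they were followed in single EL4 cells with and without an shRNA against Ctcf. They were chosen by symbol from the 24057 genes of the table, for what they are known to do. No rule on their values was used, but earlier results of these data were known. All 48 were found and passed the filter on low values. EL4 is a mouse T-lymphoma line. WT cells carried an shRNA against luciferase (shLuc) and CTCF-KD cells an shRNA against Ctcf (shCTCF), the gene of the architectural DNA-binding protein CTCF, and the study asked how the knockdown changed variation between cells. Both kinds of cell were grown in 2 cultures, numbered by experiment, so that shLuc #1 pairs with shCTCF #1 and shLuc #2 with shCTCF #2. The sources used here do not settle whether the shCTCF cultures also differed in their hairpin. On the Fluidigm C1 system each culture was captured on a circuit of its own, so culture, circuit and, within an experiment, condition cannot be told apart. The culture was taken as the replicate, and p-values measure only the spread between these cultures.

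In each cell, reads were given as TPM, a count scaled by the length of the gene and by the sum over the cell. Whole reads were recovered from these values, and the median per cell lay between 230477 and 247586 reads in the first 3 cultures and at 131098 reads in shCTCF #2. The library of 1 shLuc #2 cell with 81 genes was left out, which left 24, 23, 24 and 24 cells. All values of the 4 cultures below are given in 1 order, first shLuc #1 and shLuc #2, then shCTCF #1 and shCTCF #2. Ctcf itself was at a mean of 60.3, 37.1, 16 and 44.9 TPM, so that in these cells the Ctcf RNA of the culture labelled shCTCF #2 was not below its control. The study also checked the knockdown of both shCTCF lines on bulk cells by Western blot and RT-qPCR, which were not analysed here. The main results are also given by experiment or without that culture. The T-lineage label held, since all 12 T markers were detected with a summed level of 8886 to 11051 TPM. Of these, Cd247 had reads in only 6, 3, 5 and 3 cells. Among markers of other lineages, 2 of 7 B-cell genes (0 to 5.06 TPM) and 1 of 5 erythroid genes (0 to 1.52 TPM) had reads. So did 4 of 8 myeloid genes (276 to 502 TPM). Most of the myeloid sum was Fcer1g, at 371, 224, 273 and 470 TPM with reads in 7, 8, 10 and 9 cells. Cd68 had reads in 6, 4, 4 and 6 cells, while Lyz2, Mpo, Elane and Tyrobp were at 0, as was the erythroid gene Hba-a2. The source of the myeloid reads was not tested.

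Before S phase, the origin recognition complex, Cdc6 and Cdt1 load the Mcm2 to Mcm7 ring onto DNA as an inactive helicase, which Cdc45, the GINS complex and Mcm10 then help to activate. The ring opens the helix, the RPA proteins cover the single strands, polymerase alpha with primase starts each strand, and polymerases delta and epsilon extend it, held by the clamp Pcna that the Rfc complex loads. E2F factors, released when cyclin E and its kinase inactivate the retinoblastoma protein, drive transcription of many of these genes, so that their RNA is known to be high from late G1 into S phase and low in resting cells.

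Letters of the kind that E2F factors bind were searched for in the promoters, and the windows of the 4 most abundant members that hold an E2F-type motif are shown for that reason. RefSeq windows of GRCm38.p6, from 250 bases before to 50 after a transcription start, matched 40 of the 48 members. The motif was searched as TTTCCCGC, TTTGGCGC, TTTCGCGC or TTTGCCGC on both strands, and overlapping matches form 1 run of capitals. It was present in 15 of the 40 matched members (37.5%), against 2.60% of all 27025 genes with a window and 4.80% of the 9132 tested genes with one. The 15 were Mcm3, Mcm5, Mcm6, Mcm7, Orc1, Cdc6, Cdt1, Gins3, Rfc3, Pola1, Pold1, Pold3, Pole2, Lig1 and Uhrf1. The letters CCAAT, on either strand, were in 24 of the 40 windows (60%) and in 41.1% of all windows. Each sequence below covers 180 bases before to 30 after the start on the gene's own strand, with the E2F-type motif in capitals. The windows are those of Mcm3 (chr1:20820283-20820492, minus strand), Mcm5 (chr8:75109329-75109538, plus strand), Mcm6 (chr1:128359676-128359885, minus strand) and Mcm7 (chr5:138171854-138172063, minus strand).
Mcm3: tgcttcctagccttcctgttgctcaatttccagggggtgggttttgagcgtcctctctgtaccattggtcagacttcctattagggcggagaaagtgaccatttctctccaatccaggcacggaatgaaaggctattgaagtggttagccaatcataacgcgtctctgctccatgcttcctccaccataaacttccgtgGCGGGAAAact
Mcm5: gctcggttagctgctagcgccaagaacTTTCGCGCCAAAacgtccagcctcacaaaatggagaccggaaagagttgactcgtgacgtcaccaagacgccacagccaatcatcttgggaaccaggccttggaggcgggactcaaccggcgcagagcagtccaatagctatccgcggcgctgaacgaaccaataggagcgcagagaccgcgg
Mcm6: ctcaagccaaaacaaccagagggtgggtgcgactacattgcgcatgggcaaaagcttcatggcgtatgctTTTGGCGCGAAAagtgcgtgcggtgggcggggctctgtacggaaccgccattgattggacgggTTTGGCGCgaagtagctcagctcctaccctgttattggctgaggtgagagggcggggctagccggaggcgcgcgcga
Mcm7: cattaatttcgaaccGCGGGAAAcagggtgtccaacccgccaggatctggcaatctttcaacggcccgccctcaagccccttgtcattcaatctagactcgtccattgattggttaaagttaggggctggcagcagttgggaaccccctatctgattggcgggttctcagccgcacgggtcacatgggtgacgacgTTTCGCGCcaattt
Mcm6 carried 2 runs in this stretch, 110 and 47 bases before the start, and Mcm5 carried 1, which began 153 bases before it. In Mcm7 the runs began 165 bases before the start and at base 17, counting the start as base 1, and in Mcm3 at base 20, with another at base 39 beyond the stretch shown. A match in these letters is a description and not a measured binding site. Members with the motif had a median log2 change of 0.70 in CTCF-KD cells and those without it 0.44, and their shares of cells with a read differed between conditions by 21.4 and 23.1 percentage points.

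The replication genes were found in more cells after the knockdown. At an equal depth of 80000 reads per cell, the median member had a read in 41.7%, 50.0%, 79.2% and 73.9% of cells, so that both CTCF-KD cultures stood above both WT cultures. The median change was 22.2 percentage points, and it was 25 points in experiment 1 and 21.7 points in experiment 2. Over all 11980 genes tested the median change was 6.34 points, and over the 7843 genes with a mean log2(TPM + 1) above 1 it was 10.6 points. In 43 of the 48 members the share was higher in both CTCF-KD cultures than in either WT culture, against 39% of all genes tested. It was higher on average in 46 members and equal in the other 2, Rfc1 and Rpa3, which already had a read in nearly every WT cell. Among the 43, Rpa1 differed by only 4.26 points, from shares of 95.7% or more in every culture. In the other 3 members outside the 43, Slbp, Ccne2 and E2f1, the cultures overlapped. Without shCTCF #2, the culture whose single-cell Ctcf level went against its label, the median change was 23.9 points and 45 members stood apart, as 53.1% of all genes did.

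**Figure D1:**
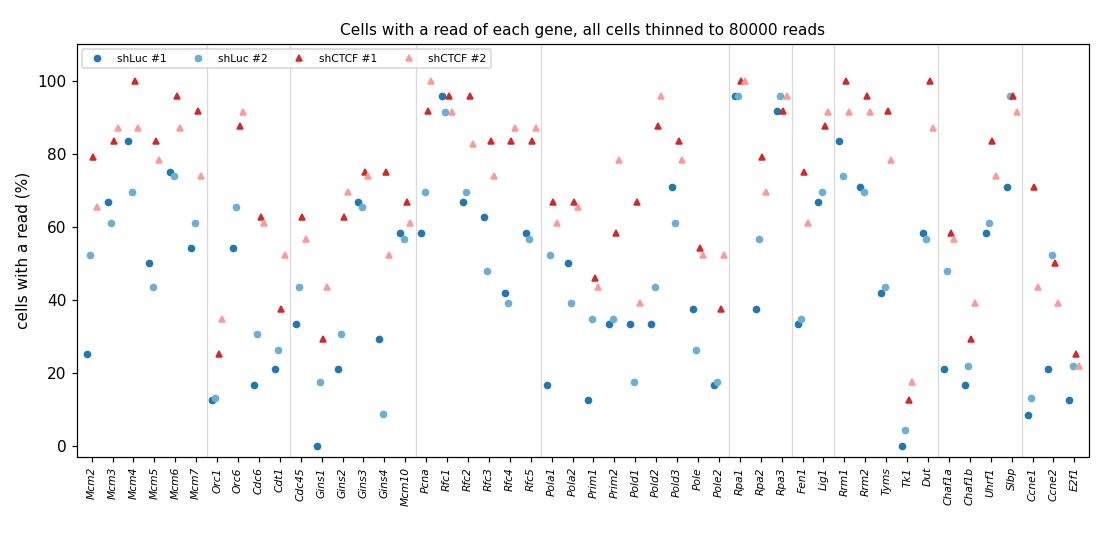
The share of cells with at least 1 read (vertical axis, %) is plotted for each of the 48 genes, ordered by role, after every cell was thinned to 80000 reads. Circles are the shLuc cultures and triangles the shCTCF cultures. The triangles lie above both circles for 43 genes and reach 87.5% and 95.7% for Pold2, against 33.3% and 43.5% in the shLuc cultures.

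Pold2, the second subunit of polymerase delta, showed the largest gap, with reads in 8, 10, 21 and 22 of 24, 23, 24 and 23 thinned cells. Ccne1, cyclin E1, was seen in 2, 3, 17 and 10 of these cells. Gins4, a GINS subunit, was seen in 7, 2, 18 and 12 and Rfc4, a clamp-loader subunit, in 10, 9, 20 and 20. Pcna was present in 14, 16, 22 and 23, thus in every shCTCF #2 cell at this depth. In each of these genes the CTCF-KD cultures exceeded both WT cultures. With 2 cultures on each side the smallest exact permutation p is 0.33 (two-sided), which each of them reached.

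The level in cells that had a read differed little at the median. Taken over those cells alone, the mean TPM of the median member differed by -0.01 on the log2 scale, against -0.24 over all genes. In CTCF-KD, 23 of 48 members were higher, against 4236 of 11398 genes. Cdt1 was the member with the highest such difference (1.19), followed by Tyms (0.84) and Cdc6 (0.75), and E2f1 had the lowest (-1.63). The gap between conditions thus lay more in the number of cells with a read than in the level within them. A gene missed in a cell and a gene not transcribed there cannot be told apart in these libraries.

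Counted per cell, the same difference appeared as fewer CTCF-KD cells with reads of few members. In shLuc #1, cells held reads of 10 to 41 of the 48 members (median 25.5), in shLuc #2 of 8 to 42 (median 28), in shCTCF #1 of 11 to 43 (median 40) and in shCTCF #2 of 17 to 46 (median 36). At 80000 reads the medians were 21.5, 25, 37.5 and 36 members. Cells with fewer than 24 members were then 13 of 24 in shLuc #1 (54.2%, exact 95% binomial interval 32.8% to 74.4%), 11 of 23 in shLuc #2 (47.8%, 26.8% to 69.4%), 2 of 24 in shCTCF #1 (8.33%, 1.03% to 27%) and 6 of 23 in shCTCF #2 (26.1%, 10.2% to 48.4%). The intervals cover counting error only, and between conditions only those of shLuc #1 and shCTCF #1 do not overlap. Cells with reads of fewer than 24 members were thus a smaller share in both CTCF-KD cultures, most clearly in shCTCF #1.

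**Figure D2:**
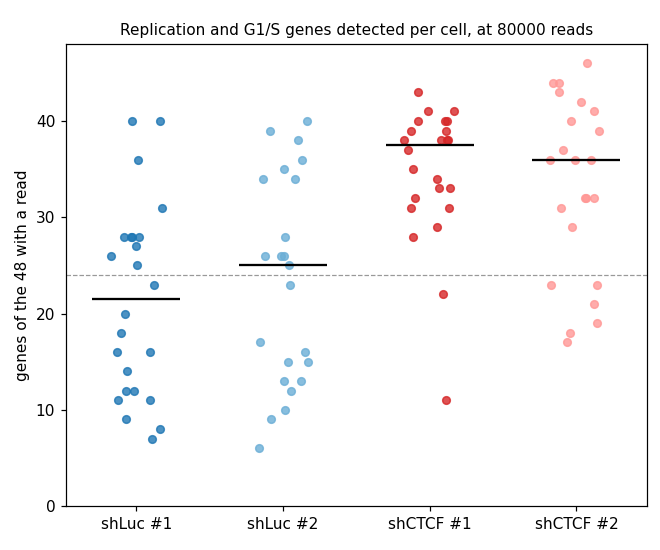
Each point is 1 cell, placed by culture and by the number of the 48 genes with a read at 80000 reads (vertical axis). Bars are medians (21.5, 25, 37.5 and 36), and the dashed line marks 24 genes, under which 13, 11, 2 and 6 cells lie.

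The number of genes of any kind moved with the condition as well. Median genes detected per cell were 4771, 4635, 6173 and 5656, a difference of 1211 genes (exact permutation test, two-sided, p = 0.33, the smallest 4 cultures allow), and at 80000 reads they were 4170, 3954, 5231 and 5233. Within cultures, the mean log2(TPM + 1) of the 48 members moved with genes detected in shLuc #1 (Spearman's rho 0.72 over 24 cells) and shLuc #2 (0.63 over 23 cells), less so in shCTCF #2 (0.44) and hardly in shCTCF #1 (0.09). With recovered reads the coefficients were -0.22, -0.08, 0.03 and 0.12. The part of genes detected in the results on detection and level was not tested.

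By mean level per culture, the members leaned upward but none passed a test across genes. The median log2 change of the mean TPM + 1 was 0.52, against 0.04 over all 11980 genes, with 0.79 in experiment 1 and 0.31 in experiment 2. Of the 48, 41 were higher and 7 lower, and 31 were higher and 4 lower in both experiments. Over all 11980 genes, 6243 were higher and 5737 lower, and 3606 were higher and 3194 lower in both experiments. The change was more positive in experiment 1 for 39 members. The median was 0.17 without shLuc #1 and 0.87 without shLuc #2. Both CTCF-KD cultures lay above both WT cultures in 18 members (background 19.9% of genes) and below them in 2, Gins3 and E2f1 (background 16.9%), and the 18 became 39 without shLuc #2 (39.2% of genes) and 30 without shCTCF #1 (37.8% of genes). By limma on 4 cultures with Benjamini-Hochberg adjustment, 0 members were called, as were 0% of all genes, and the smallest adjusted p of a member was 0.585. At an unadjusted p under 0.05, 4 members were higher (Ccne1, Cdt1, Pold2 and Cdc6; 4.79% of genes) and 0 lower, and with experiment as a block 11 were higher (7.66% of genes), again with 0 called (smallest adjusted p 0.245). When the log2(TPM + 1) values of single cells were averaged instead, which weighs the number of cells with a read more, the median change was 1.44 against 0.23 over all genes. Pold2 (3.94, limma adjusted p = 0.047) and Rfc4 (3.21, limma adjusted p = 0.048) then passed, as 0.367% of genes did in this direction.

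**Figure D3:**
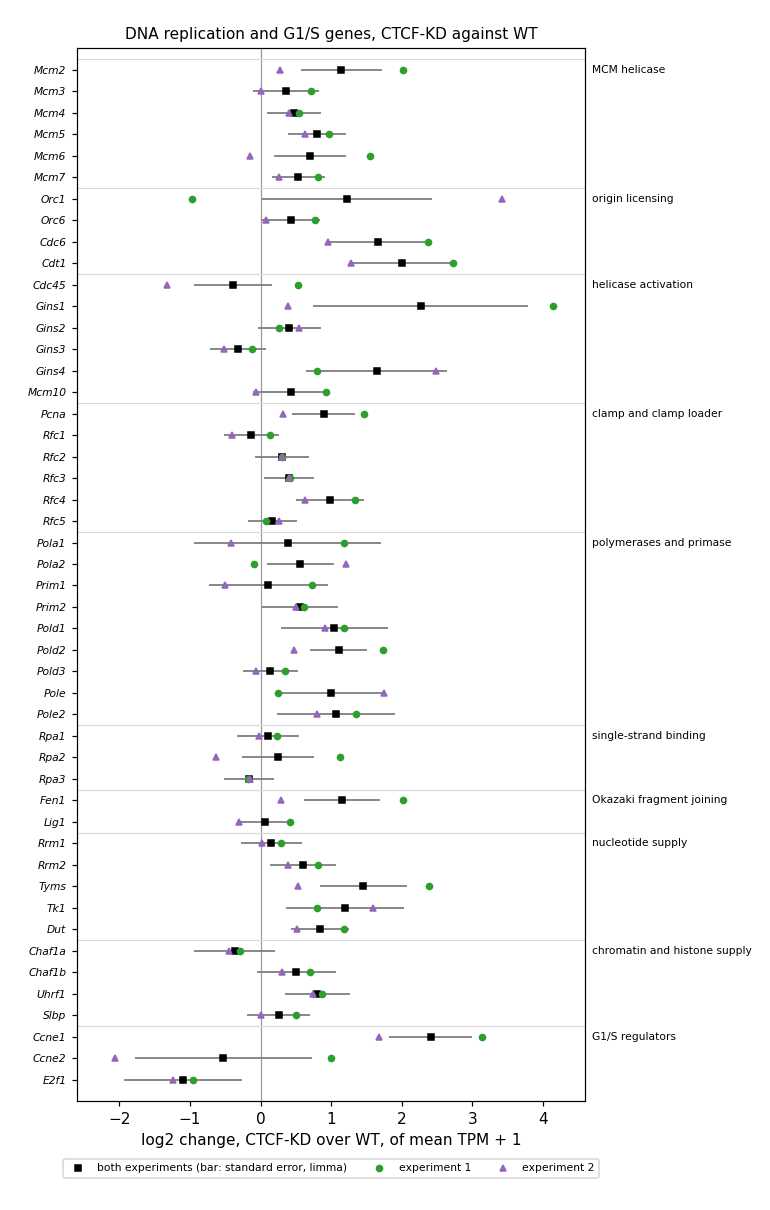
Each row is 1 gene, grouped by role, and the horizontal axis is the log2 change of mean TPM + 1, CTCF-KD over WT. Squares with bars are the limma estimate with its standard error over 4 cultures, circles experiment 1 and triangles experiment 2. Most squares lie right of 0 (41 of 48), from -1.10 for E2f1 to 2.41 for Ccne1, and Gins1 in experiment 1 rests on a culture with 0 reads, so that its circle depends on the pseudocount.

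The helicase genes leaned upward as a group. The 6 genes of the ring, Mcm2 to Mcm7, each had a higher mean in CTCF-KD, 5 of them in both experiments, with a median change of 0.62, and all 6 were found in more cells of both CTCF-KD cultures. Mcm3 was the most abundant at 153, 351, 251 and 352 TPM, where the cultures overlapped (log2 change 0.36, standard error 0.47). Mcm2 was at 34.1, 105, 141 and 127 TPM, with reads in 6, 13, 21 and 17 cells and no overlap between conditions (log2 change 1.15, standard error 0.58). The shLuc #1 value was the low one, and the change was 2.02 in experiment 1 and 0.28 in experiment 2.

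Licensing genes had the highest median of any role, 1.45 over 4 genes. Cdt1, which brings the ring to origins and lies on chromosome 8 (122568015 to 122573554), was at 7.75, 25.6, 57.2 and 63.9 TPM with reads in 6, 7, 13 and 12 cells, and both CTCF-KD cultures exceeded both WT cultures (log2 change 2.01, standard error 0.69, limma adjusted p = 0.61). Cdc6, its loading partner on chromosome 11 (98907801 to 98923940), was at 9.55, 30.9, 53.9 and 60.7 TPM, again without overlap (log2 change 1.67, standard error 0.68, limma adjusted p = 0.647). In both genes the difference was larger in experiment 1 (2.73 and 2.38) than in experiment 2 (1.29 and 0.95). Orc6, the most abundant of the role, was at 71.9, 127, 124 and 134 TPM (log2 change 0.43, standard error 0.42). Orc1, the large subunit of the recognition complex, rested on few reads and went opposite ways, at 10.3, 2.01, 4.75 and 31.3 TPM, lower in experiment 1 (-0.97) and higher in experiment 2 (3.42). It shares 10.8% of its exon bases with Gm12743 on the other strand.

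The genes that activate the helicase were mixed in level and uniform in detection, with 4 of 6 higher by mean TPM and all 6 found in more cells of both CTCF-KD cultures. Cdc45 was at 68.3, 190.1, 99.5 and 75.3 TPM (log2 change -0.39, standard error 0.55), higher in experiment 1 (0.54) and lower in experiment 2 (-1.32), although its reads were seen in 10, 11, 16 and 13 cells. Gins3 was lower in both CTCF-KD cultures at 75, 90, 68.6 and 62.3 TPM (log2 change -0.33, standard error 0.40), by an amount under its standard error. Gins1 had 0 reads in shLuc #1, where 0 of 24 cells allow a share of cells with a read of up to 12.5%, and was at 22.8, 16.7 and 30.2 TPM in the other cultures. Gins2 was found in 9, 9, 16 and 17 cells, but 67.3% of its exon bases lie in Gse1 on the other strand. Gins4 was at 42.9, 5.16, 75.1 and 33.7 TPM with reads in 8, 3, 18 and 15 cells (log2 change 1.64, standard error 1.01), and its lowest culture was shLuc #2. Unlike Cdc45 and Gins3, Gins4 was above its own control in both experiments.

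In the clamp and its loader, 5 of 6 genes were higher in both experiments. Pcna was at 60.4, 126, 169 and 157 TPM (log2 change 0.89, standard error 0.45) and Rfc4 at 51.6, 112, 132 and 174 TPM (log2 change 0.98, standard error 0.48), both without overlap. Rfc4 shares 12.7% of its exon bases with Eif4a2 on the other strand, and Pcna has processed pseudogenes (Pcna-ps1 and Pcna-ps2), so some of their reads are uncertain. Rfc2 had the highest level of the role at 266, 176, 327 and 218 TPM (log2 change 0.30, standard error 0.38). It shares 15.1% of its exon bases with Lat2 on the other strand, and Rfc5 shares 10.7% with Wsb2. Rfc1, the large subunit, which had reads in 23, 23, 24 and 23 cells, was at 87.9, 134, 97 and 102 TPM (log2 change -0.13, standard error 0.39) and was the gene of this role that was not higher.

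All 9 polymerase and primase genes were higher by mean TPM, 5 of them in both experiments, and all 9 were found in more cells. Pold2, on chromosome 11 (5872180 to 5878292), was at 111, 195, 373 and 272 TPM (log2 change 1.11, standard error 0.40, limma adjusted p = 0.61) with reads in 10, 11, 22 and 23 cells and no overlap. Pold1, the catalytic subunit of the same enzyme, was at 22.9, 10.5, 53.2 and 20.7 TPM (log2 change 1.05, standard error 0.75) and above its own control in both experiments, but with overlap. Pole2, of polymerase epsilon, was at 6.14, 19, 17.2 and 33.7 TPM (log2 change 1.07, standard error 0.83). Prim1, the catalytic primase subunit, was at 15.5, 77, 26.3 and 54.1 TPM (log2 change 0.11, standard error 0.84), higher in experiment 1 and lower in experiment 2.

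Of the RPA genes, Rpa1 and Rpa3 had reads in nearly every cell of both conditions. Rpa3 was at 205, 283, 180.2 and 256 TPM with reads in 24, 22, 24 and 23 cells (log2 change -0.16, standard error 0.36), and Rpa1 had reads in 24, 22, 24 and 23 cells at 145, 273, 170.4 and 268 TPM (log2 change 0.10, standard error 0.44). Rpa2, by contrast, was found in 10, 14, 19 and 16 cells, at 56.2, 115, 124 and 73.7 TPM. Of the pair that finishes the lagging strand, the flap nuclease Fen1 was at 30, 71.6, 124 and 87.8 TPM without overlap (log2 change 1.15, standard error 0.54) and the ligase Lig1 at 85.6, 107, 115 and 86.2 TPM with overlap (log2 change 0.06, standard error 0.39). Fen1 shares 78.8% of its exon bases with an antisense gene, and whether the counting used strand is not given in the sources used here.

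Nucleotide supply was the role in which all 5 genes were higher in both experiments, with a median change of 0.85. Tyms, thymidylate synthase, on chromosome 5 (30058202 to 30073617), was at 14.7, 37.2, 81.5 and 53.9 TPM with reads in 13, 13, 22 and 20 cells (log2 change 1.46, standard error 0.61), and it too has a processed pseudogene (Tyms-ps). Dut, which removes dUTP, was at 47.1, 61, 108 and 87.6 TPM (log2 change 0.85, standard error 0.41), and neither gene overlapped between conditions. Rrm2, the small subunit of ribonucleotide reductase, was the most abundant of the 48 at 290.3, 642, 511 and 839.8 TPM (log2 change 0.60, standard error 0.47), with overlap since shLuc #2 exceeded shCTCF #1. Tk1, thymidine kinase, was nearly unseen, with reads in 1, 1, 3 and 4 cells. For comparison, the mean level of the 48 members over all cells ran from 3.03 to 571 TPM (median 78.3), and that of the median gene tested was 17.2 TPM.

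Of the genes that supply chromatin and histones, 3 of 4 were higher by mean TPM. Slbp, which binds histone mRNA, led the role at 80.9, 158, 115 and 159 TPM (log2 change 0.26, standard error 0.45). Chaf1b was at 20.2, 32.4, 33.5 and 40.3 TPM without overlap (log2 change 0.51, standard error 0.56). Its partner in the chromatin assembly factor, Chaf1a, was at 39.1, 80.8, 31.9 and 58.9 TPM, lower in both experiments (log2 change -0.37, standard error 0.57), though it was seen in 7, 13, 17 and 13 cells. Exons of Chaf1a overlap those of Ubxn6 on the other strand over 52.5% of their length.

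The G1/S regulators split. Ccne1, on chromosome 7 (38097984 to 38107534), had the highest limma statistic of the 48, at 9.62, 18.7, 92.6 and 62.2 TPM from 59, 144, 554 and 168 recovered reads in 4, 4, 19 and 11 cells, again with no overlap between conditions (log2 change 2.41, standard error 0.59, limma adjusted p = 0.585). The median cell had 0 TPM of Ccne1 in 3 cultures and 75.4 TPM in shCTCF #1, and the highest cell reached 169, 344, 389 and 422 TPM. Ccne2, the related cyclin E2, was at 3.69, 55.3, 8.38 and 12.5 TPM, with shLuc #2 as the outlying culture, and differed by 1.00 in experiment 1 and -2.06 in experiment 2. It shares 17.4% of its exon bases with Ints8 on the other strand. E2f1 was lower in both CTCF-KD cultures at 13.9, 11.9, 6.65 and 4.50 TPM (log2 change -1.10, standard error 0.84), from 191, 80, 71 and 21 reads in 4, 5, 6 and 6 cells. By log2 change, Ccne1 thus stood highest and E2f1 lowest of the 48 genes, and neither passed the threshold.

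The spread between cells was the measure on which the study was built, and it was lower in CTCF-KD for each member that passed its filter on mean level. The CV, the SD of log2(TPM + 1) between cells of a condition divided by its mean, was taken for the 46 members that passed the study's filter on mean level, which left out Tk1 and E2f1, and was lower in CTCF-KD in all 46, against 6394 of 7843 genes. The median CV of these members was 1.09 in WT and 0.57 in CTCF-KD, and over all genes it was 1.07 and 0.80. By the study's rule, a CV difference more than 1 SD from the mean difference, 13 members had a decreased CV (background 11.3%) and 0 an increased CV (background 7.68%). The 13 were Mcm2, Orc1, Cdc6, Cdt1, Gins1, Gins4, Rfc4, Pold1, Pold2, Pole2, Fen1, Chaf1b and Ccne1. The CV was 3.38 in WT and 1.18 in CTCF-KD for Gins1, 2.37 and 0.87 for Ccne1 and 1.98 and 0.73 for Gins4, the largest differences. The smallest were those of Rpa3 (0.21 in both), Rfc1 (0.33 and 0.29) and Rpa1 (0.31 and 0.23), genes with reads in nearly every cell. With shLuc #1 left out, the rule gave 6 members in place of 13, and 869 of 7835 genes.

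With the culture as replicate, limma called 6 of 45 members lower in CV (4.14% of 7823 genes). These were Pold2 (-0.89 ± 0.17, adjusted p = 0.0363), Dut (-0.54 ± 0.11, adjusted p = 0.0377), Rfc4 (-0.77 ± 0.15, adjusted p = 0.0383), Pcna (-0.40 ± 0.09, adjusted p = 0.0478), Tyms (-0.61 ± 0.14, adjusted p = 0.0478) and Ccne1 (-1.48 ± 0.35, adjusted p = 0.0483), each a difference of the limma fit with its standard error over 2 cultures per condition. With experiment as a block, 24 members were called, as were 19.9% of genes. Without shLuc #1 limma called 8 members (8.4% of genes), without shLuc #2 it called 2 (2.32%), and without either shCTCF culture 0 (0%). CV falls as the mean of log2(TPM + 1) rises, and both moved together here. Once the running median of CV over genes of like mean was subtracted in each culture, limma called 0 members (background 0%), and the median member differed by -0.03.

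**Figure D4:**
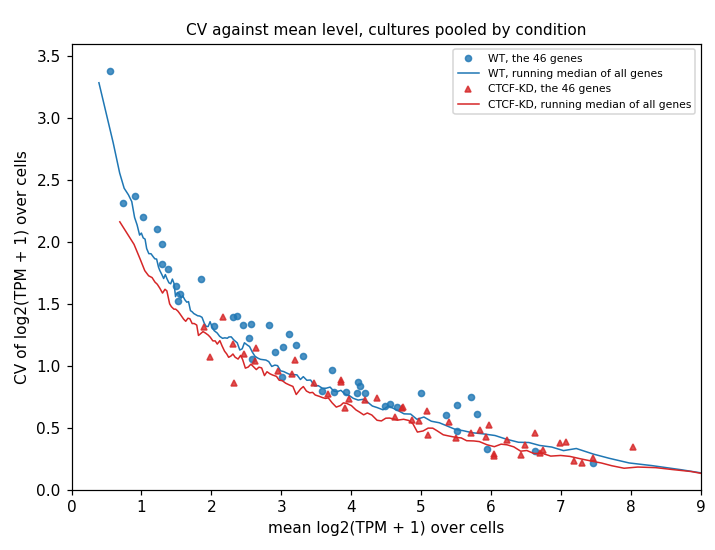
For 46 genes the CV over cells (vertical axis) is plotted against the mean log2(TPM + 1) over cells (horizontal axis), cultures pooled, with circles for WT and triangles for CTCF-KD. Lines are running medians over all genes with a mean above 1. Most triangles lie to the right of and below the circles of their genes (median CV 0.57 against 1.09), and both sets run along the lines. Those of Ccne2 and Rpa3 lie slightly to the left, and Rpa3 has nearly the same CV in both conditions.

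Within a culture the replication genes varied together from cell to cell. In the WT cultures they did so about as much with G2/M genes, described below, as with each other. Spearman correlations over cells were taken between the 46 members with a read in at least 25% of cells, and they describe cells that share a library preparation and a circuit. The median over pairs was 0.26, 0.30, 0.23 and 0.29, and it was 0.15, 0.23, 0.24 and 0.27 once genes detected had been regressed out. Over all 7752 genes with the same detection the median was 0.01 to 0.03, and close to 0 after the removal. Of 990 pairs that could be computed in every culture, 468 (47.3%) were positive in all 4. The closest pairs, with genes detected removed, were Mcm6 with Mcm7 (mean 0.65 over cultures, lowest 0.52), Pcna with Lig1 (0.61), Mcm5 with Mcm7 (0.61), Mcm7 with Lig1 (0.60) and Rrm2 with Tyms (0.60). Mcm7 had the highest median correlation with the other members (0.39), followed by Tyms (0.35), Rrm2 (0.35) and Dut (0.33). Ccne1 (-0.02), Gins3 (0.06) and Rpa3 (0.06) had the lowest. Among roles, the helicase ring (0.28, 0.55, 0.39 and 0.57) and nucleotide supply (0.42, 0.55, 0.44 and 0.49) had higher medians than licensing, whose highest was 0.29 in shCTCF #2.

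Genes outside the list whose levels followed the members' mean most closely were ranked by the mean of the 4 coefficients within cultures, with genes detected removed. First was 2810417H13Rik (0.70), also named Pclaf, followed by Rad51ap1 (0.68), Clspn (0.60), Kif15 (0.60), Gmnn (0.59), Cenpk (0.57), Asf1b (0.56), Spc24 (0.55), Ptma (0.55) and Wdr76 (0.55). Clspn, Gmnn and Asf1b belong to the list of other replication and G1/S genes, and the first 100 genes held 12 of the 50 genes of that list that could be ranked and 14 of 40 G2/M genes.

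The G2/M genes, which act in late cycle and mitosis, gave a comparison from the same cells. They too were found in more cells of CTCF-KD (median change 15.7 points at 80000 reads), but in cells with a read their level was lower (median log2 difference -0.79, against -0.01 for the 48 members). By mean TPM, 28 of 40 G2/M genes were lower, 22 of them without overlap (background 16.9% of genes), and 0 were higher without overlap (background 19.9%). Their sum was 5641, 5389, 5191 and 4005 TPM, and that of the 48 members was 3180, 5320, 5357 and 6059 TPM. The sum of the members was thus lowest in shLuc #1 and that of the G2/M genes in shCTCF #2. Within WT cultures the G2/M genes were more tightly linked than the members (median pair correlation 0.75 and 0.61), and in CTCF-KD cultures the coefficients were 0.34 and 0.33. Between members and G2/M genes the median was 0.31, 0.29, 0.13 and 0.15. With genes detected removed it was 0.18, 0.20, 0.13 and 0.08.

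When each cell was placed by its mean log2(TPM + 1) over both lists, many WT cells were low in both. A limit of 3 for both means, set after the values were seen, put 11 of 24, 9 of 23, 1 of 24 and 4 of 24 cells in a low group. Some cells lay just past it in both conditions. Examples were 1 shLuc #1 cell with means of 3.13 and 1.81 and 1 shLuc #2 cell with 3.08 and 2.26. In shCTCF #1, 1 cell had means of 3.10 and 2.83. Whether the groups are separate was not tested. The low group thus held fewer cells in both CTCF-KD cultures than in either WT culture, and most cells of shCTCF #1 lay outside it. Over the cells outside it, the median pair correlation of the members was 0.15, 0.15, 0.17 and 0.23. Between both lists it was -0.06, -0.05, 0.06 and 0.02 over those cells. Since the cells were chosen by the same 2 means, cutting off the corner low in both lowers such coefficients by itself. They therefore do not show where the link between the lists lies.

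**Figure D5:**
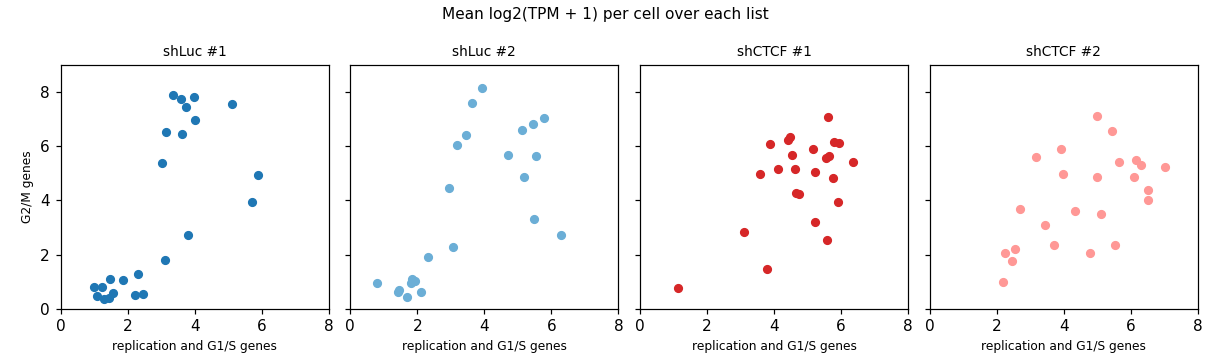
Each point is 1 cell, placed by its mean log2(TPM + 1) over the 48 replication and G1/S genes (horizontal axis) and over 40 G2/M genes (vertical axis), 1 panel per culture. The corner with both means under 3 holds 11, 9, 1 and 4 cells in the order of the panels.

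Other genes of the pathway were 60 further replication and G1/S genes, of which 59 could be tested. They leaned the same way more weakly, and mainly in experiment 1. In all, 35 were higher and 24 lower, with a median log2 change of 0.24, and 0 were called by limma (adjusted p under 0.05). The median was 0.52 in experiment 1 and 0.04 in experiment 2, with 39 and 30 of the 59 higher. Over all 11980 genes it was 0.04 and 0, with 6198 and 5931 higher. Without overlap, 20 were higher (background 19.9% of genes) and 10 lower (background 16.9%). The 3 with the highest statistic were Tfdp1, the dimer partner of E2F factors (1.66), Orc2 (1.58) and Cdk4 (0.73). The 3 with the lowest were Rbl2 (-2.14) and Rb1 (-1.44), of the retinoblastoma family, and Ticrr, which helps origins to fire (-1.56). Their shares of cells with a read differed by a median of 13 points at 80000 reads, against 22.2 points for the 48 members.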

How the data were processed

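Single-cell RNA-seq of 96 EL4 cells was analysed from a table of 24057 genes. The authors aligned reads to GRCm38 with STAR, counted reads that mapped to a single place per gene with HTSeq and deposited TPM values; whether counting used strand is not given in the sources used here, and no molecular identifiers are described. Samples were grouped by their labels. Cells under 3000 genes were removed (1 cell). Since TPM values of 1 gene are multiples of the value of 1 read, reads were rebuilt from that step and a factor per cell. The step was the largest that gave whole numbers within 0.001, so that 504605 of 504605 values were whole follows from that choice. Genes with a value in 1 cell only (1336) were taken at 1 read there. On simulated reads, 99.8% of values were returned exactly. The rebuilt reads served for depth and for thinning to 80000 reads, which left out 1 shCTCF #2 cell. The cells of a culture held 3232422 to 6192121 reads in all, fewest in shCTCF #2.

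Genes were kept where 2 or more cells had log2(TPM + 1) above 1, and they were tested with limma 3.58.1 (R 4.3.3; empirical Bayes with trend, pseudocount 1) on log2(mean TPM + 1) of 4 cultures, without a block, with Benjamini-Hochberg adjustment over 11980 genes at 0.05. CV used the 7843 genes with a mean log2(TPM + 1) above 1. Single values were compared by exact permutation over cultures. The culture number marks the experiment in the study's methods, so it pairs the samples, and deviations from the group means had a correlation of 0.175 over the genes tested; the block was run as an alternative. The scripts were tested on simulated data. Alternatives covered the scale, pseudocount, filters, scaling, depth and each culture left out. No count model was fitted to TPM.

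The 48 members, their roles and the other gene lists were chosen with earlier results of these data known. Named members are the 8 highest and 8 lowest by limma statistic, the most abundant per role, those called by any test and the extremes of CV; of other pathway genes the 3 highest and 3 lowest, and of similar genes the first 10. Coordinates are from GENCODE M21 and promoters from RefSeq GRCm38.p6, which held windows for 40 members.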

Additional observations from a re-analysis of the deposited data

How the results depend on the processing

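With 2 cultures per condition, few tests can pass, and shCTCF #2 was the shallowest culture. The gain in detection kept its direction and size under every alternative run (20.9 to 24.5 percentage points, with 38 to 46 members apart). At 80000 reads, 39% of all genes stood apart with every culture and 53.1% without shCTCF #2. For the other alternatives that share is not given here. The median level change was 0.17 to 0.87 with 1 culture left out, and the members without overlap were then 23 to 39. Of all genes, 19.9% stood apart with every culture, 39.2% without shLuc #2 and 37.8% without shCTCF #1. For shLuc #1 or shCTCF #2 left out, that share is not given here. With at least 4000 genes per cell, the median change and the members without overlap were 0.36 and 12, against 0.52 and 18 as reported. On the mean of log2(TPM + 1) per cell these were 1.44 and 38, with 2 members called (0 otherwise, the replicate block included). The share of all genes without overlap is not given here for either setting. The number with a decreased CV was 7 for linear TPM (923 of 7843 genes) and 7 in experiment 2 alone (825 of 7830 genes). It was 4 with the wider filter on genes (1114 of 11398 genes) and 6 after subtraction of the running median (676 of 7843 genes). With 1 culture left out it was 6 to 12 (808 to 907 of all genes). Those increased were 1 for linear TPM (701 of all genes) and 2 after subtraction of the running median (771 of all genes). The limma count on CV was 0 at a pseudocount of 0.1, 14 at 10, 0 for linear TPM and 0 with the wider filter. It was 0 after the subtraction, 24 with the replicate block (19.9% of genes) and 0 to 8 with 1 culture left out. For the pseudocount of 10 the share of all genes called is not given here, so the 14 cannot be set against it. Co-variation was 0.222 with genes detected removed, and 0.210 at 80000 reads as well, an alternative chosen after seeing the data. The gap in genes detected was 935.5 at TPM above 10. Single members changed sign on the per-cell mean of logs (Cdc45 1.01, Gins3 0.13, Rfc1 0.089, Chaf1a 0.68, E2f1 0.072), in RPM (Prim1 -0.18, Chaf1a 0.018), with 4000 genes per cell (Prim1 -0.30, Lig1 -0.15) and with 1 culture left out, where log2 changes ran from -0.24 to 0.95 for Mcm3, -0.016 to 2.47 for Orc1, -1.13 to 0.34 for Cdc45, -0.021 to 4.55 for Gins1, -0.43 to 0.17 for Rfc1, -1.01 to 1.23 for Prim1, -0.35 to 0.56 for Rpa1, -0.42 to 0.087 for Rpa3, -0.15 to 0.26 for Lig1, -0.88 to 0.15 for Chaf1a, -0.22 to 0.74 for Slbp and -2.32 to 1.27 for Ccne2. The causes were not tested.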

Other observations

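Ctcf RNA was also set beside the replication genes over the cells of each culture. The Spearman correlation over cells between Ctcf and the mean log2(TPM + 1) of the 48 members was 0.57 in shLuc #1 and 0.67 in shLuc #2, over 24 and 23 cells, and 0.34 in shCTCF #1 and 0.19 in shCTCF #2, over 24 cells each. In the shLuc cultures these coefficients span the low and the remaining cells described above, and Ctcf detection shares the number of genes detected with that mean.

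The members took up a small part of each cell's RNA. Their share of all TPM had a median of 0.243%, 0.426%, 0.524% and 0.508% per cell, and single cells reached 0.862%, 1.37%, 1.15% and 1.73%.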
